A study of Mus musculus with 4 samples.

Results

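The weaker distal intronic peaks of open chromatin gained in *Smyd1-KO* embryonic hearts were examined. A peak belonged to this group when it was on the list of *Smyd1-KO*-enriched ATAC-seq peaks with a score below 200 tags, lay more than 10 kb from every annotated transcription start site (TSS), and lay inside the body of a protein-coding gene without touching an exon. In all, 2852 of the 25745 *Smyd1-KO*-enriched peaks met this rule, which is 11.08% (exact 95% interval 10.7 to 11.47%). These 2852 peaks are called the members below. They were chosen by the score and the position of the peaks, so both are given as a description only. Scores are fractional, so a tag here is a scaled unit and not a whole read.

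ATAC-seq uses the Tn5 transposase to place sequencing adapters into DNA that is free of nucleosomes, so that open chromatin gives peaks of tags. It was applied to whole hearts of mouse embryos at E9.5 (embryonic day 9.5), which were wild type (WT) or *Smyd1-KO*, that is, homozygous for a null allele of *Smyd1* carried in every cell. *Smyd1* encodes a histone methyltransferase that is made in striated muscle. Each genotype had 2 libraries of 40000 viable cells from pooled hearts (4 hearts per pool), making 4 libraries in all, and peaks were called on the combined libraries of each genotype. The lists therefore hold 1 value per peak and no replicate error, and the depth of each library is unknown from them. The hearts were not sorted into cell types, so a gained peak in more cells of a type and a more open site in each cell cannot be told apart. Neither list measures the *Smyd1* deletion itself, and no member lay in the 33.08 kb of *Smyd1* in which one could have been placed.

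Open chromatin inside introns and far from promoters often marks enhancers, which are stretches of DNA where transcription factors bind and raise the activity of a gene, either the host gene or one farther away. Other open sites far from promoters bind CTCF, which together with cohesin shapes loops and boundaries of the chromosome. In the embryonic heart, GATA, MEF2, TEAD, NK2 (such as NKX2-5), MEIS, T-box and HAND factors and SRF, which binds the CArG box, are among the factors that bind enhancers of muscle genes.

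The peaks below show what members looked like. For each motif that was at least 1.5 times as frequent in the members as in other intron sequence of equal GC content (given further on), the highest-scoring member with that motif in a listed gene is shown, followed by members with the highest scores of all and the one with the lowest. All sequences are the plus strand of mm10 over the whole width of the peak, in lower case, with the letters that matched any of the 9 motifs (CTCF, MEF2, CArG, GATA, TEAD, NKX2, MEIS, MYF and AP-1) in capitals, on whichever strand they matched.

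Shown for CTCF is a peak at chr8:69919040-69919188 in intron 3 of 11 of *Gatad2a*, a subunit gene of the NuRD chromatin remodelling complex. It had a score of 158 tags and lay 16328 bp from the nearest TSS. Shown for MEF2 is a peak with 121 tags at chr14:115436745-115436893 in intron 5 of 7 of *Gpc5*, which encodes a cell surface heparan sulphate proteoglycan, and GATA and NKX2 matches followed the MEF2 match. Shown for the CArG box is a peak with 147 tags at chr16:96969806-96969954 in intron 3 of 32 of *Dscam*, an adhesion molecule of neurons.
Gatad2a, CTCF: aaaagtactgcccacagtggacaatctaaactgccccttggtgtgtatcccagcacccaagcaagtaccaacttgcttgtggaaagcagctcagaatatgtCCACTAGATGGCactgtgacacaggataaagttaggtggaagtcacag
Gpc5, MEF2: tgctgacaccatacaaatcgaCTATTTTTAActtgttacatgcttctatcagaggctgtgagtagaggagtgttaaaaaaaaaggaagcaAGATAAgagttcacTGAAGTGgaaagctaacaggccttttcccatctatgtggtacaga
Dscam, CArG: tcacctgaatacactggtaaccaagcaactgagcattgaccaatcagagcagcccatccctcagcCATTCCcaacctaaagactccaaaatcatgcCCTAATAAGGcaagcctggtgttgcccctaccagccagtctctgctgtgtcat

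A single peak was the highest-scoring listed one for GATA, TEAD and NKX2 together. It lay at chr3:126723641-126723789 in intron 3 of 18 of *Camk2d*, which encodes the main calcium/calmodulin-dependent kinase of the heart, 13708 bp from a TSS, and had 199.5 tags. Its NKX2 match lay to the left of the centre, the TEAD match near it and the GATA match (on the minus strand) to the right. The MEIS peak, with 198 tags at chr13:12318071-12318219, lay in the first of 20 introns of *Actn2*, the gene of sarcomeric alpha-actinin in the Z-disc. The MYF peak, with 175.5 tags at chr9:29025720-29025868 in *Ntm* (neurotrimin, an adhesion molecule), held GATA, TEAD and NKX2 matches as well. The AP-1 peak, with 178.5 tags at chr7:112823736-112823884, lay in intron 2 of 13 of *Tead1*, itself a TEAD factor gene.
Camk2d, GATA, TEAD and NKX2: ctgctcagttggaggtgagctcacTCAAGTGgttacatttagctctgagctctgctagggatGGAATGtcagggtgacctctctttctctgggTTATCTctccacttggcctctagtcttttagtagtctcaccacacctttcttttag
Actn2, MEIS: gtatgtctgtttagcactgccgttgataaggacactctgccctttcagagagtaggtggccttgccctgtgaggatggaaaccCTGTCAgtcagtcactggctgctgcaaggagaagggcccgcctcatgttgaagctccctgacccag
Ntm, MYF: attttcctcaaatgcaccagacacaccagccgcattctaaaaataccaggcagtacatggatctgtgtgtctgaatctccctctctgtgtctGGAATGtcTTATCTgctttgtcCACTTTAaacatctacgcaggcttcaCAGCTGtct
Tead1, AP-1: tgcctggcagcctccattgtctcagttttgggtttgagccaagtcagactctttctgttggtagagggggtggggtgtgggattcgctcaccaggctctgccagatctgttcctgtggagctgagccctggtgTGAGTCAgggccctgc

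Peaks in *Fars2* (chr13:36282071-36282219), a mitochondrial phenylalanyl-tRNA synthetase gene, and in *Bnc2* (chr4:84637760-84637908), a zinc finger gene, also had 199.5 tags and were tied with the *Camk2d* peak for the highest score. The lowest score was 24.5 tags in *Dgkb* (chr12:37866770-37866918), a diacylglycerol kinase gene, and this peak held an AP-1 match. The strongest member in a cardiac transcription factor gene, chosen after its score was seen, had 197.5 tags and lay in intron 2 of 7 of *Pbx3* (chr2:34249607-34249755), a homeobox partner of the MEIS factors.
Fars2, 199.5 tags: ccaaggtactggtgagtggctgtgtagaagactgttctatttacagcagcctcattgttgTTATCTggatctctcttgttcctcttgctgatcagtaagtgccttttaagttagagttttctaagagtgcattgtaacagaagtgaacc
Bnc2, 199.5 tags: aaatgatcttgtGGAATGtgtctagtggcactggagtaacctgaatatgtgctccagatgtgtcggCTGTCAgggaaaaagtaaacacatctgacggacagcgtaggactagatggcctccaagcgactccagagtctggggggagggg
Dgkb, 24.5 tags: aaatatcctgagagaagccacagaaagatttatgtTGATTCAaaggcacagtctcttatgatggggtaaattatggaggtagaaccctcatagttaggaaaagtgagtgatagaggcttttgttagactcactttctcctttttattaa
Pbx3, 197.5 tags: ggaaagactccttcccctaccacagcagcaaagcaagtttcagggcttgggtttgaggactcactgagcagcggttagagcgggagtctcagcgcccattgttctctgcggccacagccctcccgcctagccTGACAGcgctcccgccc

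Low scores were the rule among the members. Their scores ran from 24.5 to 199.5 tags with a median of 75 tags (quartiles 53.5 and 110.5), and 1960 members (68.72%) were below 100 tags. The distal intronic peaks with 200 tags or more numbered 361, so the members made up 88.76% of the 3213 gained peaks at such places. Nothing separated both groups at the limit: just below it stood the peaks in *Camk2d*, *Fars2* and *Bnc2* with 199.5 tags, and just above it those in *Cdh18* with 200 tags and in *Ror1* and *Adamts9* with 200.5 tags. At the distance limit, members in *Pacs2* and *Otulin* lay 10013 bp from a TSS, whereas a peak in *Rapgef4* at 9994 bp and another in *Med12l* at 9995 bp fell outside.

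**Figure D1:**
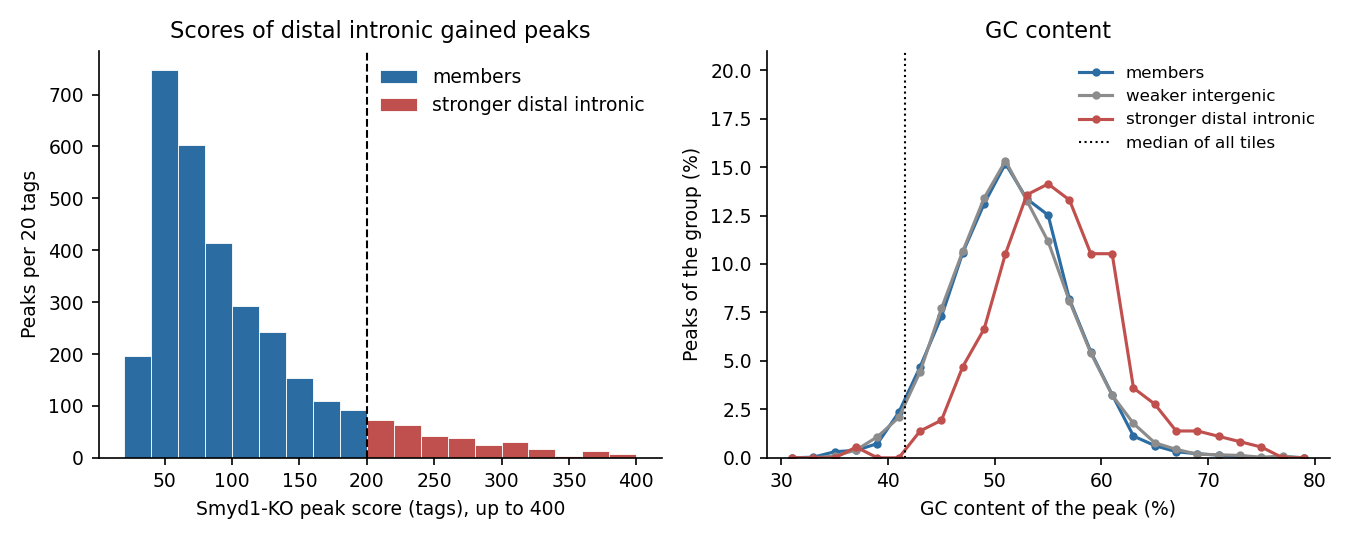
Left, number of distal intronic *Smyd1-KO*-enriched peaks per 20 tags of score, with members in blue, stronger peaks in red and the limit of 200 tags dashed. Right, percent of the peaks of each group per 2 percentage points of GC content, where the members and the weaker intergenic peaks share a median of 51.01% and the dotted line marks the tile median of 41.61%.

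Members lay deep inside genes. The distance to the nearest TSS had a median of 24206.5 bp, 1718 members (60.24%) were more than 20 kb away, 176 (6.171%) more than 100 kb, and the farthest 686637 bp. Of the 2583 members that fell in an intron of the longest protein-coding transcript of their host, 610 (23.62%, exact 95% interval 21.99 to 25.3%) lay in the first intron and 1260 (48.78%) in intron 4 or later. All sequence in which a member could have been placed was cut into adjoining tiles of the width of a peak for comparison, and 21.91% of the tiles with an intron number were in the first intron, a value just below the interval of the members. Numbered on the transcript of longest span, members were at 23.16% (21.6 to 24.78%) and tiles at 22.29%, and below 100 tags members were at 22.13% and tiles at 21.91%, so the difference shrank under both. With the TSSs of protein-coding genes only it was 23.89% against 22.37%. Of the stronger distal intronic peaks, 32.83% (27.78 to 38.19%) were in the first intron, an interval that lay above that of the members. Few members lay close together, with another member within 1 kb for 2.384% of them, within 10 kb for 12.73% and within 100 kb for 49.75%.

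The sequence that could hold a member (inside a protein-coding gene, outside exons, more than 10 kb from every TSS) came to 511.8 Mb, that is 5.572 members per Mb. Members were spread over the autosomes at 4.896 members per Mb (chromosome 8) to 6.873 members per Mb (chromosome 11). The X chromosome stood apart with 44 members at 1.638 members per Mb, and it held 5.249% of the sequence but 1.543% of the members. Gained peaks of every kind were also few there. The X chromosome held 591 of them, and the autosome with fewest, chromosome 19, held 771. No member lay on the Y chromosome, which held 1.716 Mb of such sequence. The sex of the pooled embryos is not in the labels, and its part in the low X chromosome density was not tested.

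The members were richer in GC than the introns around them. The median GC content was 51.01% in the members and 41.61% in the tiles, a difference of 9.396 percentage points, and against windows 1 kb to either side of each member it was 6.711 points. The 3217 weaker gained peaks between genes (score below 200 tags, 10 to 100 kb from a TSS) had the same median of 51.01%, while the stronger distal intronic peaks had 55.7% and all other gained peaks 59.06%. GC content went with the score among the members themselves, with medians of 49.66% in the 958 members of 24.5 to 60 tags, 51.68% in the 947 members of 60.5 to 96 tags and 53.69% in the 947 members of 96.5 to 199.5 tags.

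CpG-rich sequence was rare despite the GC content. CpG dinucleotides, which are dense in the islands at many promoters and sparse elsewhere, were found at a median of 0.1911 of the number expected from the base composition, beside 0.1961 in the weaker intergenic peaks and 0.4898 in all other gained peaks. Only 46 members (1.613%, 1.183 to 2.146%) had the make-up of a CpG island (a ratio of at least 0.6 with at least 50% GC), against 3.823% (3.188 to 4.545%) of the weaker intergenic peaks and 41.63% of all other gained peaks. Repeats were also rare: at least 50% of the bases were masked as repeats in 3.612% (2.957 to 4.363%) of the members, 6.621% (5.786 to 7.536%) of the weaker intergenic peaks and 23.61% of the tiles. The share was lower still in all gained peaks, at 2.867% (2.666 to 3.078%), and in the stronger distal intronic peaks, at 0.554% (0.06716 to 1.987%). How the reads with several possible positions were treated is not stated, and its part in the low share of repeats was not tested.

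Transcription factor motifs were searched as fixed strings on both strands: AGATAA for the GATA factors, GGAATG for TEAD, TNAAGTG for NKX2, TGACAG for MEIS, CAGATG for HAND, CAGCTG for MYF (the E-box of myogenic and related factors), TGANTCA for AP-1, AGGTGTGA for TBX, ACAGGAA for ETS, TGTTTAC for FOX, CCATTGT for SOX and GGGCGGG for SP/KLF, and the core consensus sequences of CTCF, MEF2 and the CArG box. Strings of different motifs can overlap in a peak, and each match was then counted. Each share was divided by that of the tiles after they were weighted to the GC content of the members, and the same letters in reversed order served as a control, although the reversed MEIS string GACAGT shares a run of letters with TGACAG itself. Open chromatin that did not differ between the genotypes was not analysed here, so the ratios compare members with introns at large and not with unchanged peaks. A match is a string of letters and not a measured binding site.

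CTCF stood far above the other motifs in its ratio to the tiles, but not in its share of members. Its string of 12 bases is longer than the others, so the ratios compare strings of unequal length. Its consensus was found in 147 members (5.154%, 4.372 to 6.03%) and in 0.1351% of the GC-weighted tiles, a ratio of 38.15 (95% interval 32.36 to 44.63), and its reversed letters were found in 0 of 2852 members, which allows a share of up to 0.1293% (exact interval). Of the weaker intergenic peaks 7.491% (6.605 to 8.456%) held a match, which is above the interval of the members, and of the stronger distal intronic peaks 4.432% (2.554 to 7.098%). Members with a CTCF match had a median score of 94 tags against 74 tags without, and the share was 3.549% in the members of 24.5 to 60 tags, 4.541% in those of 60.5 to 96 tags and 7.392% in those of 96.5 to 199.5 tags. No member held more than 1 match.

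The matching letters took 16 different forms over the 147 members, which are all the forms that the searched consensus allows. The 5 most frequent, written in the direction of the consensus, are given here to show the letters behind the matches, and they were found in 17, 14, 14, 14 and 12 members, in this order.
form 1: CCAGCAGAGGGC
form 2: CCACCAGAGGGC
form 3: CCACTAGGTGGC
form 4: CCAGCAGGTGGC
form 5: CCACTAGATGGC
The match read in the direction of transcription of the host gene in 71 of the 147 members (48.3%, 39.99 to 56.68%), so neither direction prevailed. GATA matches were found in 6.122% (2.838 to 11.3%) of the members with a CTCF match and in 16.82% (15.43 to 18.28%) of those without, so the CTCF members held fewer GATA matches, with intervals that did not overlap.

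Some motifs of cardiac factors, though not HAND and TBX, followed at lower ratios. GATA was found in 464 members (16.27%), 3.21 times (2.94 to 3.48) the GC-weighted share of the tiles, against 1.37 for the reversed letters. MEIS was found in 660 members (23.14%) at a ratio of 1.95, NKX2 in 356 (12.48%) at 1.92 and TEAD in 450 (15.78%) at 1.71, beside 1.37, 1.22 and 0.902 for their reversed letters. GATA, MEIS, NKX2 and TEAD kept a ratio above 1 under each alternative tried, down to 1.59, 1.73, 1.42 and 1.65. The members were not alone in these shares. In the weaker intergenic peaks they were 16.26% for GATA, 22.38% for MEIS, 10.2% for NKX2 and 15.92% for TEAD. In the stronger distal intronic peaks they were 17.45%, 28.25%, 11.08% and 16.62%, in the same order. The CArG box was found in 32 members (1.122%) at a ratio of 1.79 (1.23 to 2.52), but at 1.37 (0.939 to 1.93) against tiles not weighted by GC and at 1.32 (0.770 to 2.11) below 100 tags, intervals that include 1.

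**Figure D2:**
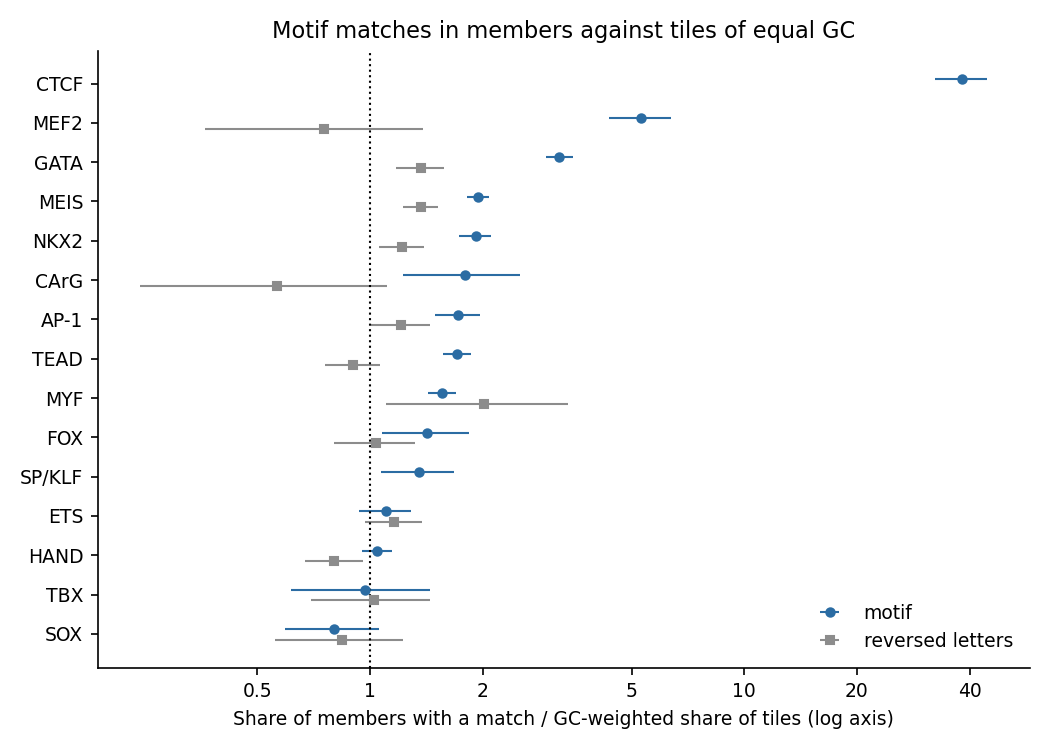
Share of members with a match of each motif divided by the GC-weighted share of tiles (blue circles) and the same for the reversed letters (grey squares), on a log axis, with exact 95% intervals that cover counting error of the members only. CTCF stands at 38.15, MEF2 at 5.29 and GATA at 3.21, and the reversed CTCF letters had no match and SP/KLF has no reversed control because its letters read the same in reverse.

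MEF2 rested on the choice of reference. It was found in 105 members (3.682%), which was 5.29 times (4.34 to 6.38) the GC-weighted tiles but 1.03 times all tiles and 1.23 times the windows 1 kb away, where its letters are nearly all A and T and the members are richer in GC than both. The reversed MEF2 letters, of the same composition, were found in 10 members (0.3506%), at 0.755 times the GC-weighted tiles. The median GC content of the members with a MEF2 match was 46.98%. Of the weaker intergenic peaks 2.922% held a MEF2 match, and of the stronger distal intronic peaks 6.094%.

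AP-1, the motif of FOS and JUN dimers, stood at 1.72 (6.767% of members), and MYF at 1.56 (15.32%), though the reversed MYF letters stood at 2.02 with 14 members. The intervals of the ratios of HAND (1.05), ETS (1.1), TBX (0.967) and SOX (0.801) included 1. FOX stood at 1.42 against GC-weighted tiles but at 0.868 against all tiles and at 0.966 against the windows 1 kb away, so its direction turned with the reference. SP/KLF, whose GC-rich letters are typical of promoters, stood at 1.35 in the members (2.735%), at 4.68 against all tiles and at 3.18 against the windows 1 kb away, and was found in 19.08% of all gained peaks. Of the members, 931 (32.64%) held none of the 9 motifs with a ratio of at least 1.5.

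The place of the matches within the peaks was a comparison that needed no tiles, but it was not weighted by GC content. Members were 6.711 points richer in GC than windows 1 kb to either side. GC-rich strings, such as that of SP/KLF without a reversed control, and A/T-rich strings are therefore not on an equal footing here. Matches within 25 bp of the peak centre were compared with those 500 to 1000 bp away, per base searched. CTCF was 85.7 times as dense at the centre, SP/KLF 4.29 times, MEIS 2.75 times, MYF 2.38 times, TEAD 2.22 times, GATA 2.21 times, AP-1 1.97 times, CArG 1.8 times, NKX2 1.47 times and MEF2 1.43 times, and the other motifs stood at 0.435 (TBX) to 1.32 (HAND). The reversed letters of MYF stood at 2.17 (5 central matches), close to MYF itself, those of MEIS at 1.38, those of GATA at 0.662, those of TEAD at 0.579 and those of MEF2 at 0.0775, so at the centre the MEF2 letters were slightly more frequent than in the flanks while the same letters in reverse were almost missing.

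CTCF matches lay more often to the right of the peak centre, that is, towards higher coordinates, than to the left. In 62 of the 147 members (42.18%) the middle of the match was within 25 bp of the centre. The middle of the match lay at a median of 24 bp to the right of the peak centre for the 68 matches on the plus strand and 32.5 bp to the right for the 79 on the minus strand, so the side did not depend on the direction of the motif. GATA (medians of 10.5 and 5 bp), MEIS (1.5 and 6.5 bp) and TEAD (5 and 6 bp) lay closer to the centre. Tags were moved by a fixed length for counting, a shift for the Tn5 insertion is not stated, and the part of either in these offsets was not tested.

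**Figure D3:**
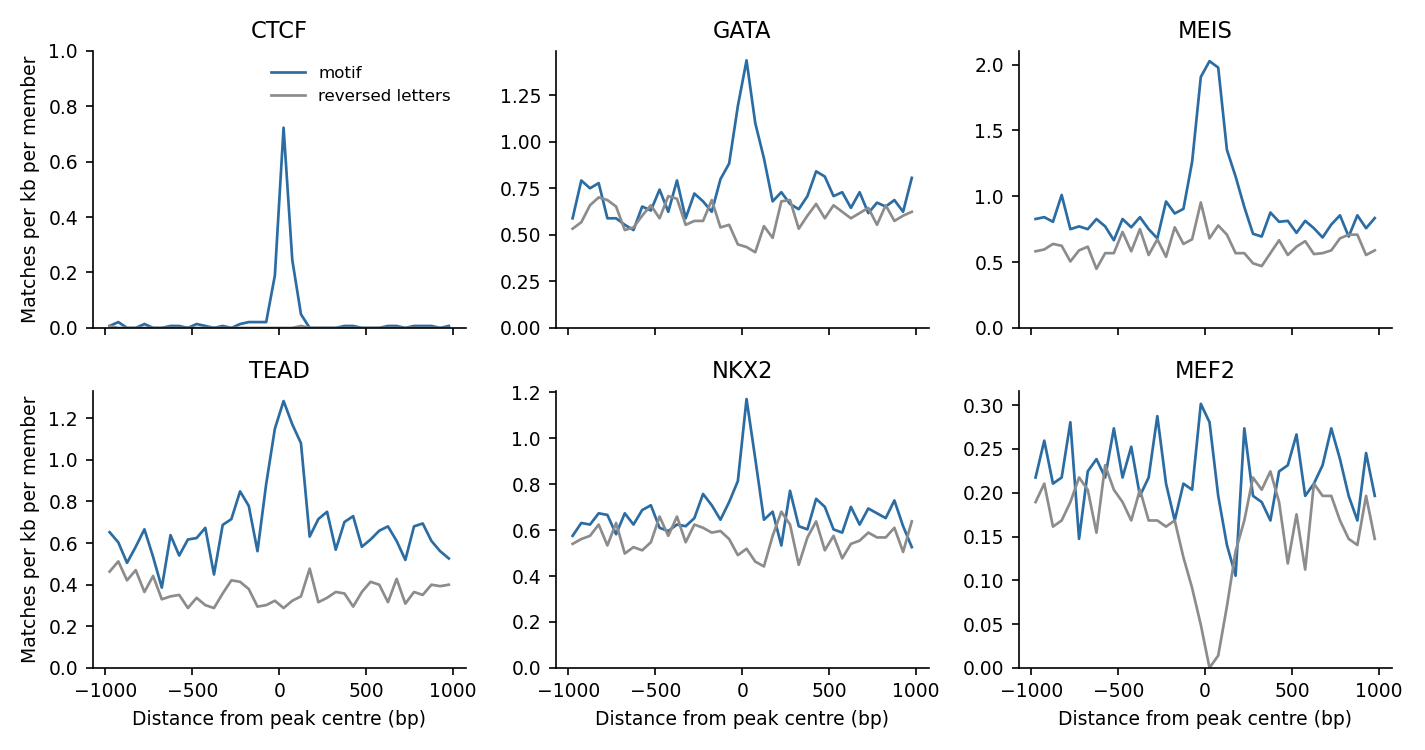
Matches per kb per member in bins of 50 bp by distance from the peak centre, up to 1000 bp to either side, for 6 motifs (blue) and their reversed letters (grey). CTCF reaches 0.7223 matches per kb in the bin from 0 to 50 bp, GATA 1.438 and MEIS 2.027, while reversed MEF2 letters dip at the centre.

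All words of 8 bases were counted as well, without regard to any motif, and 3411 of them (a word and its reverse complement counted as 1) were found in at least 1% of the members. The 10 with the highest ratio to the GC-weighted tiles were led by GAGGGCGC at 7.21 (32 members). GATA words took 4 of the 10 places, namely AGATAAGC at 6.12 (54 members), CTTATCTC at 6.04 (76 members), AGATAACA at 5.79 (59 members) and GAGATAAC at 5.72 (44 members). ATTTTTAG at 6.18 and AAAAATAG at 5.7 overlap the MEF2 consensus, and AGGTGGCG at 5.53, CTAGTGGC at 5.42 and CCACTAGA at 5.33 share their letters with CTCF words like those above. The TEAD word with the highest ratio, ACATTCCA, came at rank 36 with a ratio of 4.16 (71 members).

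The members lay in 1746 of the 8810 protein-coding genes that had sequence able to hold one, which is 19.8%. This share is the background for each list of genes below, but it covers genes of all lengths and is not matched to the lengths in a list. Of the host genes, 601 held at least 2 members, 70 at least 5 and 4 at least 10, and 42 members lay in more than 1 gene. The share of hosts rose with the length of that sequence, from 5.011% of the 4610 genes with under 20 kb to 73.91% of the 345 genes with over 300 kb, while the density of members was 6.439, 6.685 and 6.566 per Mb in the 3 classes up to 300 kb and 3.876 per Mb in the genes with over 300 kb. A gained peak within 3 kb of a TSS of the same gene was found for 1210 hosts (69.3%) and for 3987 of the 7064 genes without a member (56.44%). In each of the 4 length classes the share was higher for the hosts, and because both kinds of peak come from the same list it is given as a description.

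The genes with most members were long. *Gm20388* held 19 members with scores of 82 to 191.5 tags, but this annotated model spans 4.435 Mb and contains 71 other protein-coding genes, and 6 of its members also lay in another gene. *Gm37240* (10 members, 1.391 Mb) and the model of the growth factor receptor gene *Fgfr2* (8 members, 2.961 Mb) likewise contain 6 and 29 other protein-coding genes. Among hosts of the ordinary kind, *Macrod2*, an ADP-ribose hydrolase gene, held 15 members (38.5 to 165.5 tags) and *Lrmda* 11 (55 to 176 tags). *Dab1*, an adaptor of reelin signalling, held 9. A further 10 genes held 7 each, and the 4 densest of them were *Trabd2b*, a metalloprotease gene that acts on Wnt proteins, *Msi2*, an RNA-binding protein gene, *Camkmt*, a calmodulin methyltransferase gene, and *Dgki*, a diacylglycerol kinase gene. With the gene models over 2 Mb left out as hosts, an alternative chosen after the data were seen, 2823 members and 19.78% of genes remained.

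By density, shorter genes came first. Among genes with at least 4 members, *Ptprf*, a receptor tyrosine phosphatase gene, was the densest with 4 members in 34.09 kb (117.4 per Mb, 128.5 to 183 tags), followed by *Camk2d* with 5 in 87.18 kb (57.35 per Mb). Next came *Bcr* (50.67 per Mb), a regulator of small GTPases, *Bcar3* (47.89), a signalling adaptor, and *Nf1* (42.13), a Ras GTPase-activating protein. *Gja5* (41.69 per Mb), the gap junction protein connexin 40 of atria and conduction system, *Cgnl1* (39.68), a junction protein, *Csrnp3* (37.73), *Plekhm3* (37.63) and *Trabd2b* (36.36) completed the 10.

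Genes of calcium handling and excitation held members most often among the 10 lists. Of its 27 genes with sequence able to hold a member, 23 were hosts (85.2%, against 19.8% of all such genes), with 59 members at 9.192 per Mb (exact Poisson 95% interval 6.997 to 11.86) beside 5.561 per Mb over all genes. At the density of genes of equal length class, 31.32 members would have been placed there, so the observed number was 1.88 times that (1.43 to 2.43). Without *Ank3*, the gene with most members, the density was 8.654 per Mb. The share of hosts, unlike this number, was not matched for length. Over all genes it was 60.07% at 100 to 300 kb and 73.91% at over 300 kb of such sequence.

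*Camk2d* held 5 members with 84, 162.5, 65.5, 199.5 and 124 tags from its 5′ to its 3′ end, of which 2 held a GATA, 3 an NKX2 and 3 an AP-1 match. *Gja5* held 4 with 136.5, 67, 193.5 and 159.5 tags, and 2 of them had a MEIS match. *Ryr2*, the calcium release channel of the sarcoplasmic reticulum, held 3 members of 95, 99 and 105 tags, of which the one with 95 tags had CTCF, GATA and MEIS matches together. These genes differed in the range of their scores, which was wide in *Camk2d* and narrow in *Ryr2*.

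*Ank3*, a membrane anchor of ion channels, held 7 members from 57 to 185 tags, 5 of them in its first intron. *Cacna1c*, the pore of the L-type calcium channel, held 5 members of 53 to 110.5 tags, all in intron 3, and its auxiliary subunit gene *Cacnb2* held 3 with 50, 36 and 195 tags. *Pde4d*, a cAMP phosphodiesterase gene, held 6 members of 44.5 to 148.5 tags, and 2 of these had a CTCF match. *Trdn* (triadin, a partner of the release channel) held 2 with 187 and 60.5 tags. *Slc8a1*, the sodium-calcium exchanger gene, held 1 with 119 tags that had MEF2, MEIS and MYF matches, and *Hcn4*, the pacemaker channel gene, held 1 with 144.5 tags. The 4 genes without a member were *Atp2a2*, the calcium pump of the sarcoplasmic reticulum, *Jph2*, *Gja1* and *Rcan1*, and their sequence able to hold one ran from 8.279 to 48.3 kb.

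Genes of cardiac transcription factors had the highest density of the lists. Hosts were 11 of 21 (52.4%), with 26 members at 12.65 per Mb (8.264 to 18.54), which was 2.23 times (1.46 to 3.27) the number at the density of equal length classes. *Meis1* held 3 with 54, 102 and 191.5 tags, *Meis2* 1 with 65 tags and *Pbx3* 2 with 197.5 and 84.5 tags. *Foxp1*, a forkhead repressor gene, held 5 members of 47.5 to 149.5 tags. *Zfpm2*, the gene of the GATA cofactor FOG2, held 4 of 38 to 75 tags, all low. *Prdm16*, a zinc finger factor gene, held 2 with 108.5 and 139.5 tags.

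Single members of this list had high scores. *Tead1* had 178.5 tags, *Tbx5* (a T-box factor of atria and left ventricle) 171.5, *Nfatc1* (a factor of the endocardium, which is also on the endothelial list) 162.5 and *Gata6* 114. No member lay in *Gata4*, *Tbx18*, *Tbx20*, *Mef2a*, *Mef2c*, *Mef2d*, *Myocd*, *Irx5*, *Zfpm1* or *Smyd1*, which had 0.385 to 54.68 kb of sequence able to hold one. Other cardiac factor genes such as *Nkx2-5* and *Hand2* had no such sequence and could not be hosts.

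**Figure D4:**
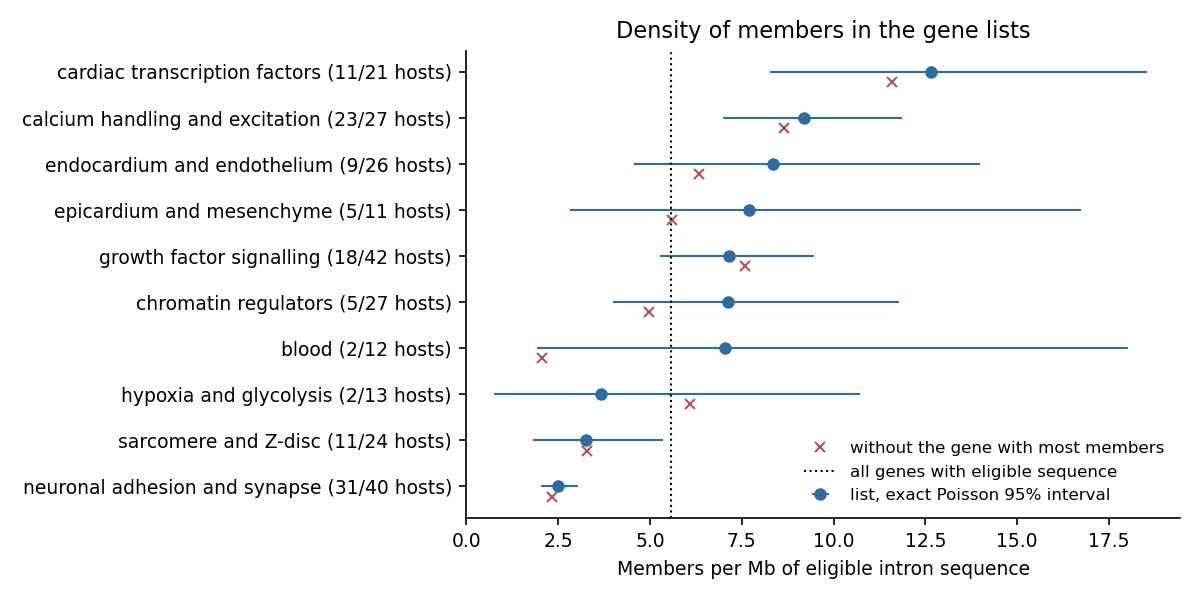
Members per Mb of sequence able to hold one, for the 10 gene lists (blue circles with exact Poisson 95% intervals) and without the gene with most members (red crosses), against 5.561 per Mb over all genes (dotted line). The intervals of cardiac transcription factors and of calcium handling lie above the line, and those of the sarcomere and neuronal lists lie below it, although against equal length classes the sarcomere interval includes 1.

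The sarcomere and Z-disc list had 11 hosts of 24 (45.8%) with 15 members, and a density of 3.249 per Mb (1.819 to 5.359). The number was 0.700 times (0.392 to 1.15) that at the density of equal length classes, an interval that includes 1. The density rested on the dystrophin gene *Dmd* on the X chromosome, which has 1.978 Mb of the 4.617 Mb and no member, and without it the density was 5.684 per Mb. *Actn2* held 2 members with 198 and 133 tags in its first intron. *Ldb3*, a Z-disc scaffold gene, held 1 of 187.5 tags with GATA, TEAD and MEIS matches, and *Fhod3*, a formin gene of the sarcomere, 2 with 172.5 and 106 tags. *Sgcd*, a sarcoglycan gene, held 3 of 64.5, 83 and 64.5 tags. *Neb*, *Nebl*, *Xirp2*, *Palld*, *Synpo2* and *Cmya5* held 1 each, of 67.5 to 138 tags, and *Ttn* held none in 67.53 kb.

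Genes of other cell types of the heart were hosts too, at densities whose intervals included the 5.561 per Mb over all genes. In the list of endocardium and endothelium 9 of 26 were hosts (34.6%) with 14 members at 8.344 per Mb (4.562 to 14), an interval that included the value over all genes, and 6.341 per Mb without *Cgnl1*. *Cgnl1* held 4 members within a narrow range of 147 to 165 tags. *Flt1*, a VEGF receptor gene, held 2 with 179.5 and 68.5 tags, *Ets1* 1 with 185.5, *Ptprb* 1 with 146, *Pecam1* 1 with 135.5 and *Tek*, an angiopoietin receptor gene, 1 with 42. *Mecom* held 2 with 39 and 156.5 tags and *Nrp1* 1 with 67. The endothelial genes *Kdr*, *Cdh5*, *Erg*, *Fli1*, *Tie1* and *Emcn* held none, with 5.776 kb (*Tie1*) to 164.1 kb (*Erg*) able to hold one. Epicardium and mesenchyme genes had 5 hosts of 11 (45.5%, 16.75 to 76.62%), namely *Zeb2*, *Zeb1*, *Cdh2*, *Fbn1* and *Fbn2*, with 6 members of 49 to 97 tags. Their density was 7.684 per Mb (2.82 to 16.73), and the number was 1.17 times (0.429 to 2.54) that at the density of equal length classes. Blood genes had 2 hosts of 12 (16.7%, 2.086 to 48.41%), a share near the 19.8% over all genes. These were *Sptb* with 3 members of 63 to 140.5 tags and *Kit* with 1 of 124.5 tags. The density of the blood list was 7.042 per Mb (1.919 to 18.03), and 2.049 per Mb without *Sptb*.

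**Figure D5:**
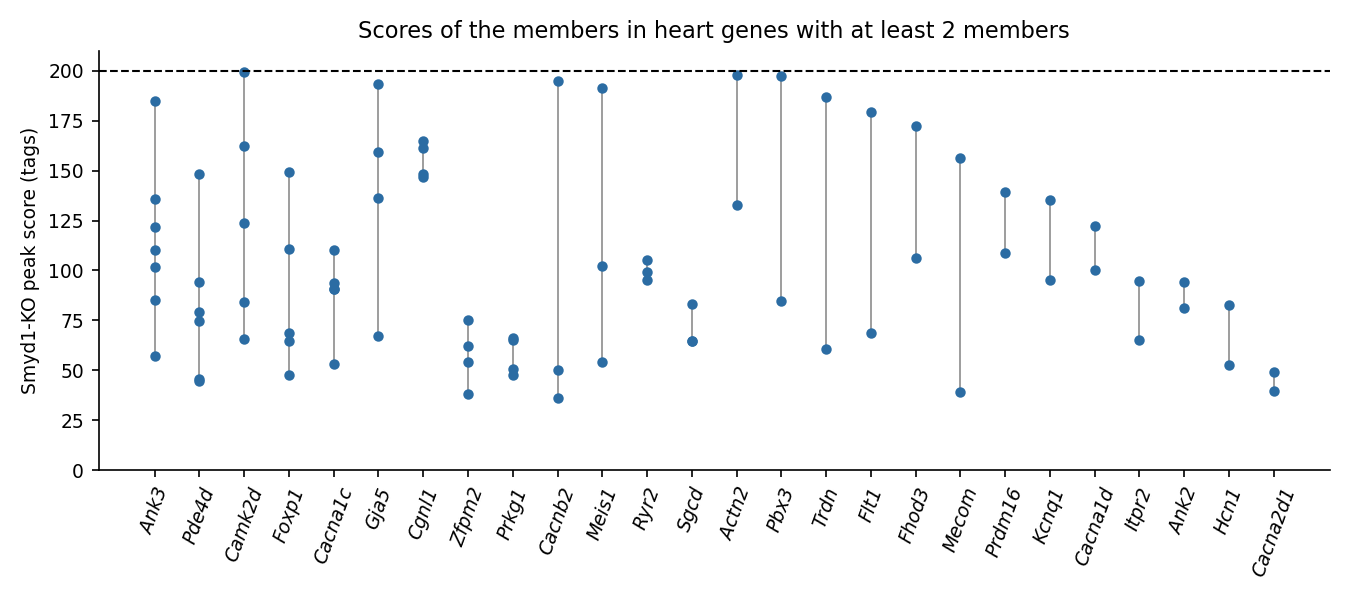
Score in tags of each member (points, 1 column per gene, joined by a line) in 26 genes of the cardiac transcription factor, sarcomere, calcium handling and endothelial lists that held at least 2 members, 82 members in all. The 4 members in *Cgnl1* sit between 147 and 165 tags, whereas those in *Cacnb2* run from 36 to 195 tags, and the dashed line is the limit of 200 tags.

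Growth factor signalling genes had 18 hosts of 42 (42.9%) with 48 members at 7.14 per Mb (5.265 to 9.467). This interval included the 5.561 per Mb over all genes, while the number was 1.49 times (1.10 to 1.98) that at the density of equal length classes. *Igf1r*, an insulin-like growth factor receptor gene, held 5 members of 64 to 124 tags, and *Nrg1*, the neuregulin gene whose product acts from endocardium on myocardium, 5 of 40 to 134.5 tags, while its receptor gene *Erbb4* held 4 of 58 to 138 tags. *Gli3*, a factor of Hedgehog signalling, held 4 of 68.5 to 140.5 tags. *Smad7*, an inhibitory SMAD gene, held 1 with 190 tags. Chromatin regulator genes had 5 hosts of 27 (18.5%), a share near the 19.8% over all genes, namely *Arid1b* and *Hdac9* with 6 members each and *Gatad2a*, *Smarca2* and *Arid1a* with 1 each. Hypoxia and glycolysis genes had 2 hosts of 13 (15.4%), *Rora* with 82.5 and 84.5 tags and *Slc2a3*, a glucose transporter gene, with 148 tags. *Arnt* and *Egln1* of that list, and *Ank1* and *Bcl11a* of the blood list, held none.

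Neuronal adhesion and synapse genes, taken as long genes of another tissue, were hosts nearly as often as the calcium genes but at a much lower density. Hosts were 31 of 40 (77.5%) with 101 members, at 2.495 per Mb (2.032 to 3.032), which was 0.641 times (0.522 to 0.779) the number at the density of equal length classes. *Dab1* held 9 members (38 to 145.5 tags), *Pcdh9* 6 (36.5 to 69 tags), *Ntm* 6 (60.5 to 175.5 tags) and *Opcml* 6 (41 to 109.5 tags). The median score was 51.5 tags in the members of this list and 94 tags in the 100 members of the cardiac transcription factor, sarcomere and calcium handling lists. GATA matches were found in 14.85% (8.557 to 23.31%) of the neuronal members and in 19% (11.84 to 28.07%) of the 100 heart members, and TEAD matches in 23.76% (15.86 to 33.26%) and 12% (6.357 to 20.02%), intervals that overlapped in both cases.

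Few peaks were higher in WT hearts, at such places or elsewhere. Of the 25745 gained peaks, 3213 were distal intronic at any score. The WT-enriched list held 106 peaks, of which 13 were distal intronic by the same rule of position. This share (12.26%, 6.695 to 20.06%) was similar to that of the gained peaks. The WT scores of the 13 ran from 28.2 to 95.6 tags. The highest was in *A630089N07Rik* (95.6 tags). Their median GC content was 43.62%, with a range of 32.89 to 60.4%. The median share of repeat-masked bases was 36.24% in these 13 peaks and 0% in the members, and with 13 peaks of 1 pooled list no difference was tested. None of the 13 lay in a gene of the cardiac transcription factor, sarcomere, calcium handling or endothelial lists. These lists hold only 2.055, 4.617, 6.419 and 1.678 Mb of the 520.4 Mb over all genes. With 13 peaks, no contrast with the members can be drawn from this.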

How the data were processed

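The deposited value of each peak is a signal, that is, the tags in the peak as the authors counted them with HOMER (version 4.10.3) over the pooled libraries of the enriched genotype (fractional values, scaled in a way that is not stated), after alignment to mm10 with BWA-MEM. They combined the libraries of a genotype, moved tags by a fixed length for counting, kept peaks differing at least 2-fold that passed a Poisson cutoff, and annotated them with ChIPseeker (version 1.20.0). Scaling between genotypes, duplicates, reads with several positions and the Tn5 offset are not stated, and each could change which peaks are listed. Lists of the 2 genotypes were scored separately, so scores were not compared across them.

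Genes and TSSs were from the full GENCODE M21 set, sequence and repeat masking from GRCm38, which equals mm10. Coordinates count from 1. All gap-free sequence able to hold a member was cut into tiles of the width of a peak, and tiles were weighted to the members in GC bins of 2 percentage points. Host introns were numbered on the protein-coding transcript with most exonic sequence. Matching, word counting and weighting were checked on simulated sequence (Python 3.11.15, numpy 2.4.6, pandas 2.3.3, scipy 1.17.1, numba 0.67.0).

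Peaks of pooled lists are not replicates, so no test was run. Shares have exact (Clopper-Pearson) and densities exact Poisson 95% intervals, which cover counting error only. Members, gene lists and motifs were chosen with earlier results of these data known. Named genes were the 10 hosts with most members (ties by density), the 10 densest with at least 4, the 4 with most members per list and the hosts of printed peaks. Other genes of the lists, the strongest *Pbx3* peak, the match offsets, the forms of the CTCF match and the comparison with length classes were added after the data were seen. Printed peaks were the highest-scoring in a listed gene for each motif at a ratio of at least 1.5, with the 2 highest and 2 lowest scores, ties by position. Some items that these rules name are not reported here.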

Additional observations from a re-analysis of the deposited data

How the results depend on the processing

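With the distance limit at 20 kb instead of 10 kb the number of members fell to 1718. The share of host genes was 14.87% with a score limit of 100 tags and 21.14% with the TSSs of protein-coding genes only. The excess of GC content over the reference was 8.725 percentage points with the limit of 100 tags and 6.711 points against windows 1 kb to either side. Against tiles not weighted by GC content the motif ratios were 83.9 for CTCF, 1.03 for MEF2, 1.59 for GATA, 1.95 for TEAD, 1.42 for NKX2, 2.37 for MEIS, 1.22 for HAND, 2.83 for MYF, 1.49 for AP-1, 0.868 for FOX and 4.68 for SP/KLF. Relative to flanking windows 1 kb away the ratios were 1.23 for MEF2, 1.70 for GATA, 1.97 for TEAD, 1.48 for NKX2, 2.17 for MEIS, 1.17 for HAND, 2.32 for MYF, 0.966 for FOX and 3.18 for SP/KLF. The GATA ratio was 2.94 with the limit of 100 tags, and without repeat-masked sequence MEIS stood at 1.73 and MYF at 1.41. FOX thus turned in direction. TBX (0.923 to 1.38) and HAND (0.957 to 1.22), whose reported intervals include 1, also lay on both sides of 1 over the alternatives, and the references not weighted by GC were poorer in GC than the members. Of the alternatives added after the data were seen, leaving *Dmd* out moved the sarcomere density to 5.684 per Mb, and the neuronal list stood at 0.449 of the density over all genes but at 0.641 of that of equal length classes. The other 80 values stayed within the interval of the reported value or, for counts, within 1.5 times of it. No paired analysis was possible because the lists pool the libraries of each genotype, and for the same reason no library could be left out. Pooling also leaves the spread between libraries unknown, and unchanged peaks were not analysed here, so nothing above separates members from other open chromatin.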

Other observations

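Within the members, some sequence features were compared over the score. CArG stood at 0.906 times the GC-weighted tiles (6 of 958 members) at 24.5 to 60 tags, at 1.69 (10 of 947) at 60.5 to 96 tags and at 3.01 (16 of 947) at 96.5 to 199.5 tags, with overlapping intervals of 0.333 to 1.97, 0.812 to 3.09 and 1.73 to 4.86. The share of members with a GATA match was 15.55% (13.31 to 18.01%), 16.58% (14.26 to 19.1%) and 16.68% (14.36 to 19.21%) in the same order, with overlapping intervals. Its ratio to the tiles was 2.59 (2.22 to 3.00), 3.33 (2.87 to 3.84) and 3.95 (3.40 to 4.55), while the share of the GC-weighted tiles fell from 6.003% to 4.977% and 4.227%, so the ratio moved mainly with the reference. SOX stood at 1.17 (26 members, 0.769 to 1.71), 0.706 (14 members, 0.387 to 1.18) and 0.447 (8 members, 0.193 to 0.877), with intervals that overlapped. The share of members with at least 50% repeat-masked bases was 6.367% at the lowest scores, 2.429% in the middle and 2.006% at the highest. The share in the first intron was 22.79%, 21.46% and 26.51%.

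GATA matches had overlapping intervals in members with and without a TEAD or a MEF2 match. Of the 450 members with a TEAD match 15.33% (12.13 to 19%) held a GATA match, and of those without 16.44% (14.98 to 17.99%). For MEF2 the values were 13.33% (7.485 to 21.36%) with and 16.38% (15.02 to 17.82%) without. Members with 2 or more matches numbered 98 for MEIS, 39 for TEAD, 34 for GATA and 28 for NKX2.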
